A study of Mus musculus with 11 samples.

Results

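The 10 genes followed here mark the supporting cells of the adrenal: Acta2, Tagln, Myh11 and Des of smooth muscle, Pdgfra and Pdgfrb, the PDGF receptors of fibroblasts and mural cells, and Mcam, Rgs5, Notch3 and Cspg4 of pericytes. They were taken by symbol from a count table of 23337 genes, in which all 10 had enough counts to be tested among 14139 genes. RNA was sequenced from 11 adrenal gland samples, 5 intact and 6 ORX, the label's short form for orchectomized, meaning that the testes were removed. All animals were male Hsd:Athymic Nude-Foxn1nu mice, a strain without a thymus, and every animal of both groups was given VCaP cells, a human prostate cancer line, at week 0 when 5 to 6 weeks old. Groups were set at week 7 and glands were taken at week 15. The comparison of ORX with intact asks how the gland differs between mice with and without testes. The labels do not say whether every sample is a separate animal, and the p-values given here rest on sample-to-sample spread that could in part be technical.

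Mural cells wrap blood vessels. Smooth muscle cells surround arteries and contract through actin and myosin, whereas pericytes sit on capillaries, held there by PDGF-B from the endothelium acting on Pdgfrb and shaped by Notch3 signalling. In the adrenal, capillaries run inward from a fibrous capsule between the cords of steroid-producing cells, and fibroblasts of the capsule and stroma carry Pdgfra.

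Library totals ranged from 11368447 to 15029582 counts. As a check of the tissue, the summed level of 10 cortex genes was 34280 to 73240 CPM (counts scaled by library size with TMM) in intact and 60430 to 92910 CPM in ORX libraries, and that of 12 medulla genes was 13410 to 32890 and 7540 to 18610 CPM. Libraries stood apart in 2 ways. In ORX 6 genes with the longest transcripts were low: the top decile of length minus the bottom decile, in median log2 CPM relative to the group, was -1.4, against -0.527 to 0.404 in the other 10 libraries. ORX 3 had the highest sum of 9 fat genes (13100 CPM, against 2856 to 7879 in the other ORX libraries), and intact 3 the highest among intact libraries (12170 against 4523 to 9401 CPM).

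The promoter of Acta2 is shown because Acta2 had the highest coefficient of variation of the 10 genes among the ORX libraries, those of Rgs5 and Mcam because they are pericyte genes whose ORX and intact libraries did not overlap. Each run is 300 bases, 250 before and 50 after the start site in RefSeq (GRCm38.p6), read 5′ to 3′ on the gene's strand. For Acta2 and Mcam the GENCODE M21 gene starts lie inside these windows but upstream of the RefSeq start. Capitals mark CArG boxes, the sequence bound by serum response factor, with at most 1 inner G or C.
Acta2, chr19:34255324-34255623, minus strand: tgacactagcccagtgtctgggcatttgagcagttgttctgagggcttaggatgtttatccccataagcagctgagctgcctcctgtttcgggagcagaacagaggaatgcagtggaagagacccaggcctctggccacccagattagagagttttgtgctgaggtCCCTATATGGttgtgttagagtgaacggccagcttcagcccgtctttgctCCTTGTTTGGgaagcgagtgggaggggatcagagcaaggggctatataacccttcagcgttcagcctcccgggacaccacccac
Rgs5, chr1:169655251-169655550, plus strand: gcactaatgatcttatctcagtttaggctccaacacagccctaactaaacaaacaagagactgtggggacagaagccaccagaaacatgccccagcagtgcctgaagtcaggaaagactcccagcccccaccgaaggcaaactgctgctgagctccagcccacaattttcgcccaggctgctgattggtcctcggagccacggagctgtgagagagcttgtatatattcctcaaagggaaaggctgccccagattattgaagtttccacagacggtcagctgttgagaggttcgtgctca
Mcam, chr9:44134408-44134707, plus strand: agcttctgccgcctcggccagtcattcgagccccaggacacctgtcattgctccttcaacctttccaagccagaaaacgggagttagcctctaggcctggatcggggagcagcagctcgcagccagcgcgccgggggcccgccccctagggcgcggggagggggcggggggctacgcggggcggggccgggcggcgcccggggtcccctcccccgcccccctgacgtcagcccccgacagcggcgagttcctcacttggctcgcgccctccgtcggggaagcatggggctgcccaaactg
RefSeq promoters were matched for 7 of the 10 genes, all but Tagln, Myh11 and Pdgfrb. Acta2 held 2 relaxed CArG boxes, CCCTATATGG from base 167 and CCTTGTTTGG from base 217 of the run, and no strict one. The relaxed form, which reads the same on both strands, occurred in 9.98% and the strict form in 1.63% of 32851 promoter windows of that length. Acta2 also held TGGGAA, the core recognised by the Notch partner RBPJ, overlapping the CArG box at base 217 (25.6% of windows, both strands), and AGAACA, the core of androgen and glucocorticoid receptor elements, at 2 places (19% of windows, both strands). None of these 4 motifs was found in the windows of Pdgfra, Rgs5, Cspg4, Des, Mcam and Notch3. The Mcam window was rich in CpG (29, 72.7% GC), while Acta2 and Rgs5 (6 CpG each) were close to the median of 7.

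Levels per kilobase of exon (GENCODE M21) placed the contractile genes Tagln and Acta2 first in intact glands. Tagln stood at 58.4 ± 14.7 CPM per kb and Acta2 at 44.2 ± 12.4 (SD, n = 5), followed by Mcam at 31.8 ± 7.39 and Pdgfrb at 16.8 ± 3.96. Pdgfra was at 10.5 ± 5.88, Des at 9.50 ± 4.61 and Rgs5 at 7.32 ± 1.87 CPM per kb. Notch3 at 4.29 ± 0.421, Cspg4 at 3.96 ± 2.15 and Myh11 at 3.05 ± 0.639 were lowest. Ranges over the 5 intact libraries overlapped between all neighbours in this order except Mcam with Pdgfrb and Rgs5 with Notch3. In ORX glands the order of the means was the same.

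All 10 genes had a log2 fold change (ORX against intact) below 0, from -0.47 for Notch3 to -1.14 for Rgs5, with a median of -0.80. Over all tested genes the median was 0.0123, and 48.7% lay below 0. Some other lists also lay mostly below 0, with 9 of 9 fat, 13 of 15 endothelial (86.7%) and 10 of 12 medulla genes (83.3%). In the cortex list 4 of 10 genes lay below 0, and in the macrophage list 3 of 8. Pdgfrb and Mcam fell, and the other 8 genes did not pass (edgeR's quasi-likelihood test, two-sided, Benjamini-Hochberg adjusted p under 0.05). Over all genes 6.21% passed, 3.18% as lower. At an unadjusted p under 0.05, 8 of the 10 genes were lower, all but Pdgfra and Des, against 12.2% of all genes. With DESeq2 5 of the 10 genes were lower (5.81% of all genes), with limma voom 7 (7.74%), with the sample number as a block 1 (1.33%) and at an edgeR adjusted p under 0.01 none (0.672%). In Mcam, Rgs5 and Notch3 every ORX library lay below every intact library, as in 2.36% of all genes. Markers were chosen for their cell types and share those cells, so they are not independent of each other. The 10 genes and the other lists were also chosen with earlier results of these data known, which limits these comparisons with all genes. In whole glands fewer cells of a type, less RNA per cell and a larger share of RNA from other cells cannot be told apart.

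**Figure D1:**
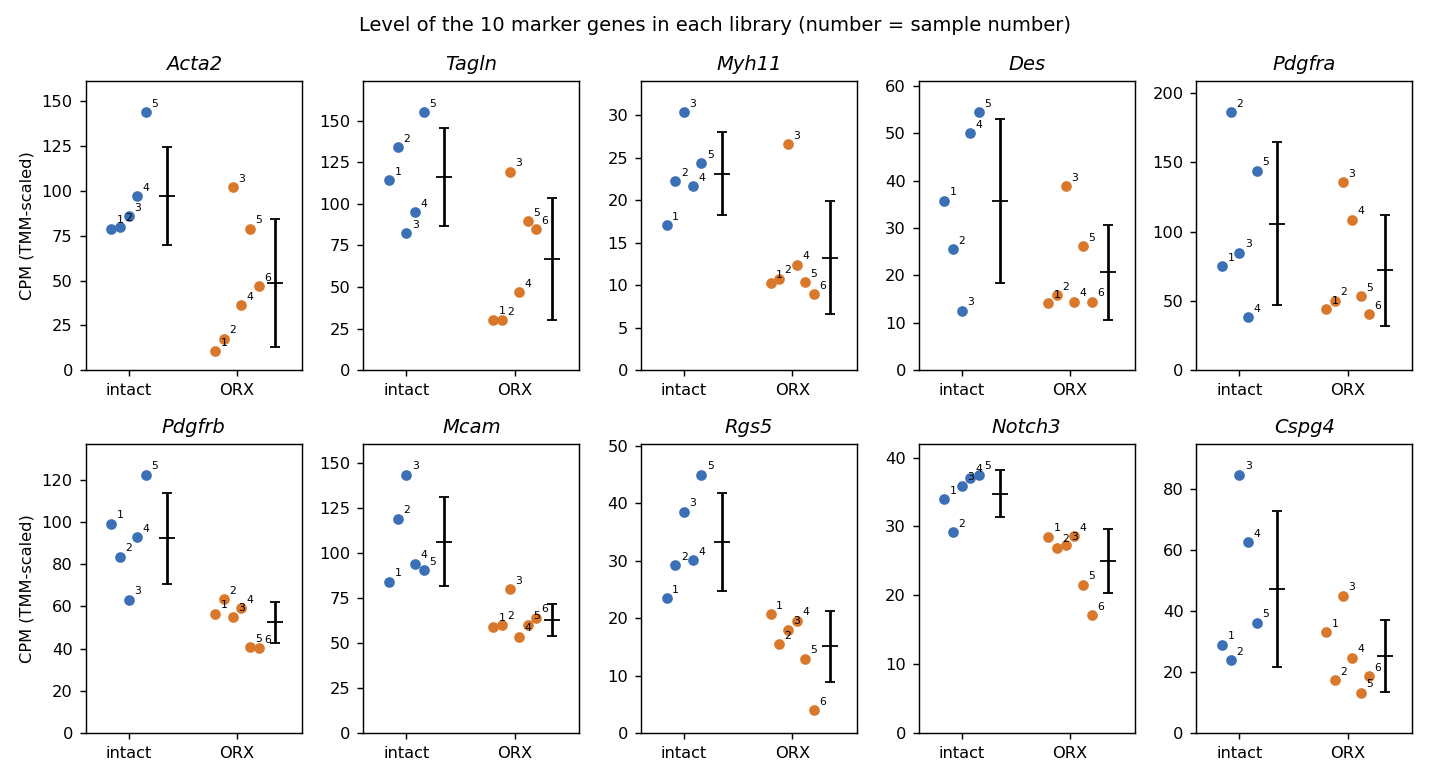
Level of each gene in CPM (vertical axis, linear from 0) by library, blue for the 5 intact and orange for the 6 ORX ones, numbered by sample, with the mean and SD as a black bar. Mcam, Rgs5 and Notch3 do not overlap between the groups, while Acta2 in ORX runs from 10.5 to 102 CPM.

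Among the contractile genes, Acta2, the actin of smooth muscle (chromosome 19, 34241090 to 34255590, minus strand, GRCm38), stood at 78.8, 80.0, 85.8, 97.1 and 144 CPM in intact 1 to 5. In ORX it was at 10.5 in ORX 1, 17.5 in ORX 2, 36.3 in ORX 4, 46.9 in ORX 6, 78.9 in ORX 5 and 102 CPM in ORX 3. In ORX, 4 libraries were thus below every intact library, ORX 5 was level with the lowest intact one and ORX 3 lay within the intact range. The means were 97.1 ± 27.2 and 48.7 ± 35.6 CPM (SD, n = 5 and 6; log2 -0.997 ± 0.46 SE; edgeR adjusted p = 0.212). The coefficient of variation was 28.0% in intact and 73.2% in ORX. Reads of near-identical actins could be split between them by the counting: Acta1 stood at 7.41 and 2.14 CPM, and Actg2 and Actc1 had at most 25 and 17 counts in a library.

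Tagln, the actin-binding transgelin (chromosome 9, 45929619 to 45936058, minus strand), had the same low libraries. Its intact values were 114, 134, 82.5, 94.9 and 155 CPM, and its ORX values 30.3 and 30.2 in ORX 1 and 2, 47.0 in ORX 4, 84.6 in ORX 6, 89.4 in ORX 5 and 119 in ORX 3. ORX 1, 2 and 4 lay below the intact range and the other 3 within it (log2 -0.80 ± 0.34 SE; edgeR adjusted p = 0.181). Its exons share 1241 of 1988 bases with Gm48529, an opposite-strand gene with no entry in the count table, and 108 bases with Pcsk7, which has one, also on the opposite strand, so with no stated strand setting its counts may hold reads of these genes.

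Myh11, the myosin heavy chain of smooth muscle (chromosome 16, 14194535 to 14291372, minus strand), separated the groups but for 1 library. Intact libraries had 17.1, 22.3, 30.4, 21.7 and 24.4 CPM. In ORX, 5 libraries lay between 8.97 and 12.4 CPM and ORX 3 at 26.6 CPM, inside the intact range. The log2 fold change was -0.81 ± 0.27 (SE; edgeR adjusted p = 0.0978), and without ORX 3, chosen here because it alone lay high, it was -1.13 (edgeR adjusted p = 0.00302). In ORX 3 the fat sum was also the highest, and the part of that in the result was not tested.

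Des, the muscle intermediate filament desmin (chromosome 1, 75360329 to 75368579, plus strand), was lowest of all in an intact library. Intact values were 35.8, 25.5, 12.6, 50.0 and 54.5 CPM, and ORX values ran from 14.1 through a median of 15.1 to 38.8 CPM. The groups overlapped fully (log2 -0.79 ± 0.37 SE; edgeR adjusted p = 0.220). Skeletal muscle also makes desmin. Of 10 skeletal muscle genes, Myh2 had 0 counts, Ckm at most 15 and Myh4 at most 2 counts in a library. Acta1 reached 19.1 CPM in an intact library, with means of 7.41 CPM in intact and 2.14 CPM in ORX. The sum of these muscle genes was 3.35 to 21.9 CPM in intact and 3.66 to 8.73 CPM in ORX. The part of skeletal muscle in the level of Des was not tested. The exons of Des overlap those of the antisense gene Gm15179 by 220 bases.

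**Figure D2:**
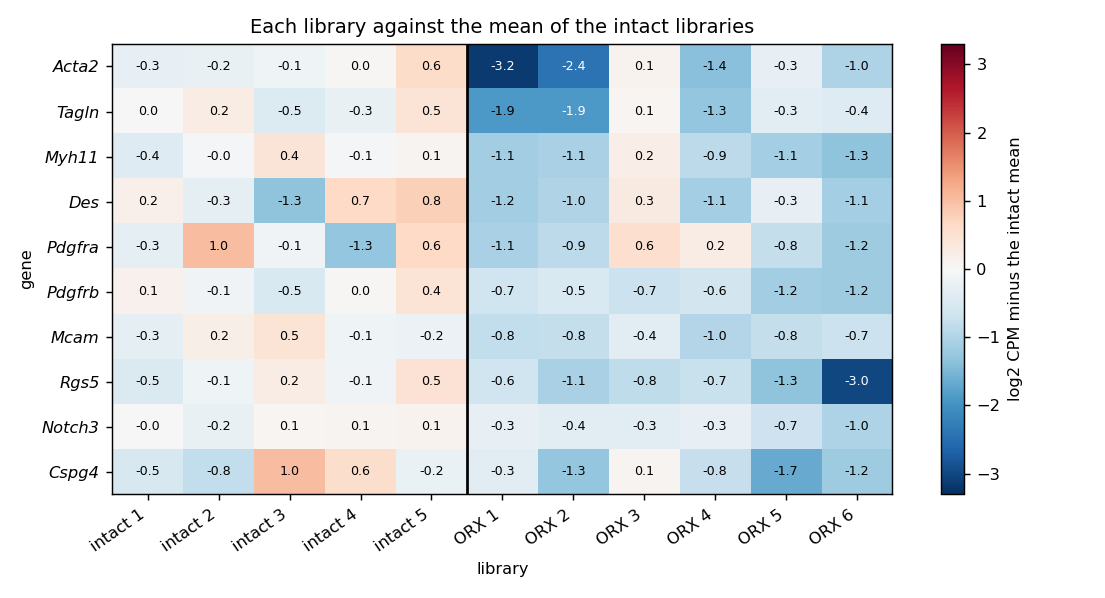
Each cell is log2 CPM (plus 0.1) of 1 gene in 1 library minus the mean of the 5 intact libraries (colour scale and printed value). ORX 1, 2 and 4 are lowest for Acta2 and Tagln, ORX 6 is lowest for Rgs5, and ORX 3 is close to or above the intact mean for Acta2, Tagln, Myh11, Des, Pdgfra and Cspg4.

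Of the PDGF receptors, Pdgfrb (chromosome 18, 61045150 to 61085061, plus strand), the receptor that keeps pericytes on vessels, fell. It stood at 99.2, 83.5, 63.1, 92.7 and 122 CPM in intact 1 to 5 and between 40.2 and 63.3 CPM in ORX, with a median of 55.8. The groups overlapped by a single pair, intact 3 at 63.1 and ORX 2 at 63.3 CPM. The fold was 1.76 lower in ORX (log2 -0.81 ± 0.18 SE; edgeR adjusted p = 0.0186). The call ended without intact 5 (log2 -0.69, edgeR adjusted p = 0.0582) or without ORX 5 (log2 -0.75, edgeR adjusted p = 0.0501). The longest Pdgfrb transcript has 5423 bases. ORX 6 and ORX 5, its lowest ORX libraries at 40.2 and 40.5 CPM, were also lowest for long against short transcripts (-1.4 and -0.527). Intact 3, its lowest intact library, was lowest in its group by that measure (-0.444). The call held without ORX 6, and the part of transcript length was not tested.

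Pdgfra (chromosome 5, 75152292 to 75198215, plus strand), which binds PDGF-A and marks fibroblasts, had no such pattern. Intact libraries were at 75.1, 186, 84.6, 38.2 and 144 CPM, and ORX libraries between 40.6 and 135 CPM with a median of 51.8. The lowest library of all was an intact one (log2 -0.55 ± 0.41 SE; edgeR adjusted p = 0.450). Without intact 2 the log2 fold change was closest to 0, at -0.25, and without ORX 3 it was -0.83. The exons of Pdgfra overlap those of the opposite-strand genes Gm42802 and Gm42803 by 456 and 166 bases. Neither of these genes has an entry in the count table. The log2 ratio of Pdgfra to Pdgfrb within a library was 0.03 ± 0.92 in intact and 0.31 ± 0.67 in ORX (SD, n = 5 and 6), a difference within the spread (two-sided exact permutation test over samples, p = 0.580, adjusted over 3 ratios p = 0.870).

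Among the genes of pericytes, Mcam (CD146), a cell adhesion molecule of mural and endothelial cells (chromosome 9, 44134469 to 44142727, plus strand), fell with no overlap. Intact libraries stood at 84.2, 119, 144, 94.1 and 90.6 CPM and ORX libraries between 53.5 and 80.1 CPM, with a median of 60.2. The narrowest gap was between ORX 3 and intact 1. The fold was 1.69 lower in ORX (log2 -0.76 ± 0.16 SE; edgeR adjusted p = 0.0146), and the call held when each library was left out in turn (adjusted p 0.0078 to 0.042).

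Rgs5, a G-protein regulator known as a pericyte marker (chromosome 1, 169655501 to 169695813, plus strand), had the lowest fold of the 10 genes. Its intact values were 23.5, 29.2, 38.5, 30.1 and 45.0 CPM. In ORX 1 to 6 it was at 20.7, 15.4, 18.0, 19.6, 13.0 and 3.92 CPM, all below the intact range. The log2 fold change was -1.14 ± 0.32 (SE; edgeR adjusted p = 0.0544), just short of the threshold. ORX 6, the lowest, is the library in which long transcripts were low, and the longest Rgs5 transcript has 4096 bases. Without ORX 6 the log2 fold change was -0.94 ± 0.19 and passed (edgeR adjusted p = 0.0161).

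Notch3, the Notch receptor of mural cells (chromosome 17, 32120820 to 32166852, minus strand), varied least of the 10 genes in intact glands, with a coefficient of variation of 9.81%. Its intact values were 34.0, 29.1, 35.9, 37.1 and 37.5 CPM. ORX values ran from 17.1 in ORX 6 through a median of 27.1 to 28.5 CPM, below all intact ones. The log2 fold change was -0.47 ± 0.16 (SE; edgeR adjusted p = 0.0873), and its longest transcript has 8016 bases. Its exons overlap those of Gm17276, an opposite-strand gene with no entry in the count table, by 488 bases.

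Cspg4, the NG2 proteoglycan of pericytes and glial precursors (chromosome 9, 56865033 to 56899870, plus strand), was spread widely in both groups. Intact libraries had 28.9, 23.8, 84.6, 62.4 and 36.1 CPM, and ORX libraries 13.2 to 45.0 CPM with a median of 21.6. The groups overlapped (log2 -0.90 ± 0.37 SE; edgeR adjusted p = 0.161), and without intact 3, the highest library, the log2 fold change was -0.59. Of the glial genes, Olig2 had at most 1 count in a library. In sum, 10 Schwann and glial genes stood at 68.6 to 107 CPM in intact and 67.9 to 88.3 CPM in ORX. The part of glia in the level of Cspg4 was not tested.

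Acta2 was also set against Rgs5 within each library. The log2 ratio of Acta2 to Rgs5 lay between 1.15 and 1.74 in the intact libraries. In ORX it was -0.97, 0.18, 2.50, 0.89, 2.60 and 3.55 in ORX 1 to 6, with 3 libraries below and 3 above the whole intact range. The means, 1.54 ± 0.24 and 1.46 ± 1.71 (SD), did not differ beyond the spread (two-sided exact permutation test, p = 0.931, adjusted p = 0.931), and the difference in spread was not tested. The highest ratio, in ORX 6, coincides with its low level of long transcripts, whose part was not tested. Leaving out ORX 1, 2 or 4 turned the difference from -0.09 to 0.40, 0.17 or 0.03.

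Rgs5 was also set against 1 endothelial gene within each library. The log2 ratio of Rgs5 to the endothelial adhesion gene Pecam1 was -1.87 ± 0.46 in intact and -2.75 ± 0.78 in ORX (SD, n = 5 and 6), a difference of -0.88 (two-sided exact permutation test, p = 0.0260, adjusted over 3 ratios p = 0.0779; the smallest p the design allows is 0.00433). Without ORX 6 the difference was -0.58 (adjusted p = 0.143), and without ORX 1 it was -1.02 (adjusted p = 0.0476). The groups overlapped, since intact 1 was at -2.41 and ORX 1 at -2.08. The ratio holds for these 2 genes: the 20 other pericyte genes had a median log2 fold change of -0.16 and the 15 endothelial genes one of -0.28.

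**Figure D3:**
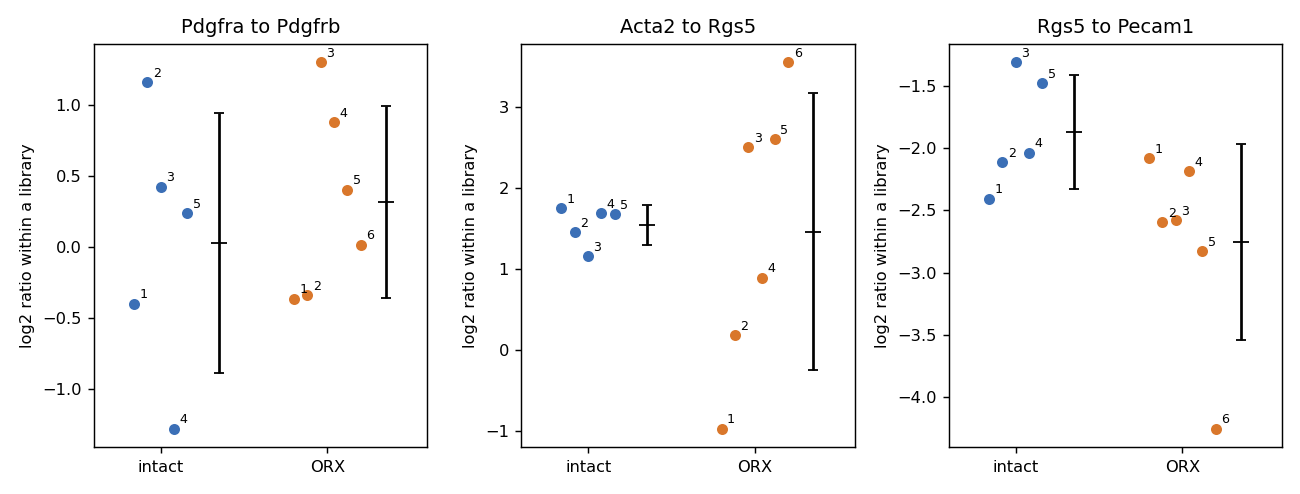
Log2 ratio of 2 genes within each library (vertical axis) for Pdgfra to Pdgfrb, Acta2 to Rgs5 and Rgs5 to Pecam1, in intact (blue) and ORX (orange) libraries numbered by sample, with mean and SD. The Acta2 to Rgs5 ratio spans 1.15 to 1.74 in intact and -0.97 to 3.55 in ORX.

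Across the 11 libraries, after each group's mean was removed, 32 of 45 pairs of the 10 genes had a Pearson r above 0, with a median of 0.237 and a range of -0.585 to 0.908. Acta2 and Tagln were closest (r = 0.908, permutation p = 0.00184, adjusted over 45 pairs 0.0828; Spearman rho 0.845, permutation p = 0.00824, adjusted 0.185), and without ORX 1 and ORX 3, the farthest from the median, r was 0.843. Rgs5 and Notch3 followed (r = 0.887, permutation p = 0.00452, adjusted 0.102; rho 0.873, permutation p = 0.00078, adjusted 0.0351), with r = 0.797 without intact 1 and ORX 6. Within the ORX libraries alone r was 0.955 for each of these pairs. Within the intact libraries it was 0.51 for Acta2 and Tagln and 0.49 for Rgs5 and Notch3. Both Rgs5 and Notch3 were lowest in ORX 6, then ORX 5. These were the ORX libraries lowest for long against short transcripts (-1.4 and -0.527), and the part of length was not tested. No pair passed after adjustment by Pearson's r, 8 had an unadjusted p under 0.05, and 1 pair passed by Spearman's rho. Some libraries stood high or low for many of the genes: ORX 3 was highest in its group for 7 of the 10 and intact 5 for 6, while ORX 6 was lowest for 5. Those 5 were Pdgfra, Pdgfrb, Myh11, Rgs5 and Notch3, whose longest transcripts have 4096 to 8016 bases. Long transcripts were low in ORX 6, and their part in these values was not tested. Cspg4, with the longest transcript of the 10 genes (8121 bases), was lowest in ORX 5.

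The genes most like each of 3 members, by r of the same deviations among 12787 genes over 11 libraries, are given as a description. Tagln (0.908), the endothelial transcription factor gene Sox18 (0.902) and Fam107a (0.900) were nearest to Acta2. Rbl1 (0.974) and Nebl (0.970) were among the 3 nearest to Rgs5, with longest transcripts of 4862 and 8079 bases. Without ORX 6, an alternative chosen after seeing the data, their r was 0.905 and 0.827. Nearest to Pdgfra were the growth factor receptor gene Egfr (0.977), Cyp1b1 (0.955) and Itgbl1 (0.944).

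Of 20 other contraction genes of smooth muscle 16 were tested, 13 of them with a log2 fold change below 0 (81.2%, against 48.7% of all genes), of which 2 fell, 1 rose and 13 did not pass, with a median log2 fold change of -0.59 (7 lower and 1 higher at an unadjusted p under 0.05, 4 and 1 with DESeq2, 5 and 1 with limma voom). Tpm2, a tropomyosin, fell from 145 ± 33.8 to 70.7 ± 25.3 CPM (SD; log2 -1.04 ± 0.24 SE; edgeR adjusted p = 0.0225), and Vcl, the focal adhesion protein vinculin, from 332 ± 81.6 to 181 ± 38.2 CPM (log2 -0.87 ± 0.19 SE; edgeR adjusted p = 0.0187). Synpo2, an actin-bundling protein of muscle Z-discs, rose from 10.3 ± 3.43 to 32.2 ± 13.6 CPM (log2 1.65 ± 0.34 SE; edgeR adjusted p = 0.0122). Tpm2 no longer passed without intact 1 or without ORX 5 (highest edgeR adjusted p 0.0627), nor did Vcl without intact 5 or ORX 2 (up to 0.0582). The transcription factor gene Srf, which binds CArG boxes, was at log2 -0.16 ± 0.26 (edgeR adjusted p = 0.755). Its partner Myocd had at most 6 counts in a library and was not tested. The sum of the 20 genes was 2061 to 2530 CPM in intact and 1271 to 2151 CPM in ORX, highest there in ORX 3.

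Of 20 other pericyte genes, 1 fell and 19 did not pass, with a median of -0.16. S1pr3, a sphingosine phosphate receptor, fell from 36.1 ± 20.4 to 18.2 ± 2.17 CPM (SD; log2 -0.99 ± 0.27 SE; edgeR adjusted p = 0.0434), a call that ended without any 1 of 9 libraries (adjusted p up to 0.0962; it held only without intact 3 or intact 4) and with library totals as the scaling (0.0511). Without intact 2 the log2 fold change was -0.58. At an unadjusted p under 0.05, 3 of the 20 were lower, as with DESeq2 (3) and limma voom (3). Ebf1, a transcription factor gene, had the lowest fold of the list (log2 -1.26 ± 0.41 SE; edgeR adjusted p = 0.0855). Kcnj8 and Abcc9, the subunits of the potassium channel of pericytes, were among the least changed. They and Ebf1 were singled out after their values were seen. Kcnj8 and Abcc9 were at log2 0.02 ± 0.17 and -0.07 ± 0.22 (SE; edgeR adjusted p = 0.958 and 0.876). Kcnj8 stood at 12.6 ± 1.56 CPM in intact and 12.8 ± 2.15 in ORX, and Abcc9 at 27.2 ± 3.35 and 25.9 ± 7.85 CPM. The 22 other fibroblast and capsule genes had a median of -0.31. None passed with edgeR, 3 were lower at an unadjusted p under 0.05 (Col1a1, Col1a2 and Ly6a), and 2 were lower with DESeq2 and 2 with limma voom.

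**Figure D4:**
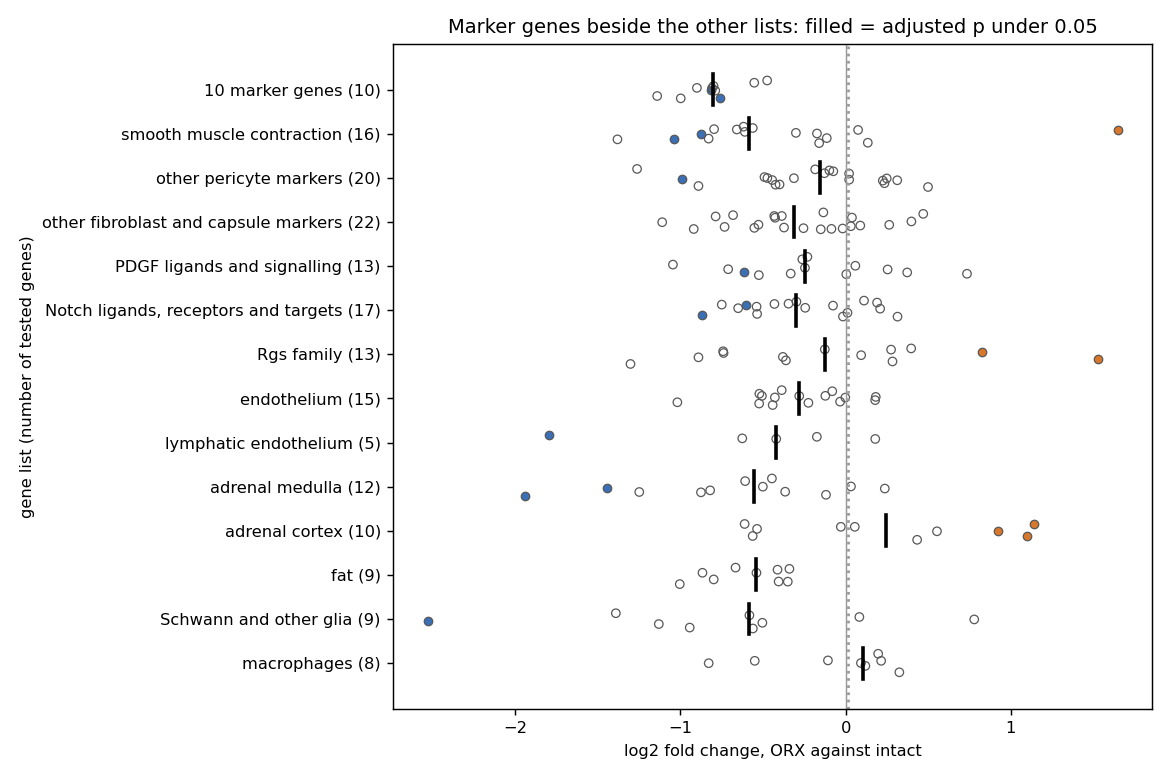
Horizontal axis: log2 fold change of ORX over intact, for each tested gene (circle) in the 10 marker genes and in 13 other lists, filled blue (lower) or orange (higher) where the gene passed and open where it did not; black bars are list medians and the dotted line is the median of all tested genes. The median of the 10 marker genes is -0.80, that of the other pericyte genes -0.16 and that of the endothelium -0.28.

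In the PDGF pathway the ligands did not pass. Pdgfb, made by endothelium for Pdgfrb, was at log2 -0.26 ± 0.16 (edgeR adjusted p = 0.36) and Pdgfa at -0.52 ± 0.17 (adjusted p = 0.0775). Pdgfd, another ligand of Pdgfrb, had the largest fold of the 4 ligands and in the other direction, at 18.6 ± 5.63 CPM in intact and 30.9 ± 12.8 in ORX (SD; log2 0.73 ± 0.34 SE; edgeR adjusted p = 0.22). Pdgfc was at log2 0.06 ± 0.18 (adjusted p = 0.877). Ptpn11, a phosphatase downstream of the receptors, was the 1 of 13 genes that passed, at 272 ± 44.0 and 178 ± 27.9 CPM (log2 -0.61 ± 0.15 SE; edgeR adjusted p = 0.0299), and that call ended without any 1 of intact 1, 2 and 5 and ORX 1, 2 and 4 (adjusted p up to 0.0893). The median of the list was -0.25, with 5 genes lower and 1 higher at an unadjusted p under 0.05, 2 and 1 with DESeq2 and 2 and 2 with limma voom.

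In the Notch pathway 2 of 17 tested genes fell and 15 did not pass, with a median of -0.30 (4 lower at an unadjusted p under 0.05, 3 with DESeq2 and 3 with limma voom). The endothelial receptor Notch4 fell from 60.6 ± 12.0 to 40.0 ± 2.69 CPM (SD; log2 -0.60 ± 0.14 SE; edgeR adjusted p = 0.0261), and the ligand Jag2 from 17.4 ± 2.69 to 9.52 ± 2.66 CPM (log2 -0.87 ± 0.20 SE; edgeR adjusted p = 0.0255). Without intact 1, intact 2, ORX 2 or ORX 5 Notch4 did not pass (adjusted p up to 0.0764), nor did Jag2 without intact 2, intact 5, ORX 2, ORX 4 or ORX 5 (up to 0.0635). Heyl, a target of Notch3 in mural cells, was at log2 -0.43 ± 0.21 (edgeR adjusted p = 0.235). Jag1, a ligand of Notch3, was at -0.30 ± 0.25 (adjusted p = 0.516).

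Of 13 tested genes of the Rgs family other than Rgs5, 2 rose and 11 did not pass, with a median of -0.13 (3 lower and 2 higher at an unadjusted p under 0.05, 2 and 2 with DESeq2 and with limma voom). Rgs12 rose from 12.6 to 36.3 CPM (log2 1.53 ± 0.21 SE; edgeR adjusted p = 0.000853), and Rgs10 from 6.71 to 11.9 CPM (log2 0.82 ± 0.22 SE; edgeR adjusted p = 0.0434). The call of Rgs10 ended without any 1 of 8 libraries (adjusted p up to 0.113; it held only without intact 2, ORX 3 or ORX 6). Rgs4, which also marks pericytes, was at log2 -0.89 ± 0.28 (edgeR adjusted p = 0.0740).

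Markers of other cells were read from the same fit. Of 15 endothelial genes none passed with edgeR, 6 were lower at an unadjusted p under 0.05, 2 with DESeq2 and 3 with limma voom, and their median was -0.28. Their sum was 1085 to 1505 CPM in intact and 981 to 1199 CPM in ORX. Pecam1 was at 119 and 91.4 CPM (log2 -0.39 ± 0.12 SE; edgeR adjusted p = 0.0830), and it passed without intact 3 or ORX 3 (adjusted p down to 0.0391). Of 5 tested lymphatic genes, 1 fell with edgeR, 1 with DESeq2 and 1 with limma voom, and 2 were lower at an unadjusted p under 0.05. The lymphatic and sinusoidal gene Lyve1 fell (log2 -1.80 ± 0.49 SE; edgeR adjusted p = 0.0474; not without any 1 of 8 libraries, up to 0.116). The 12 medulla genes had a median of -0.55, with Slc18a2 and Npy lower (Npy not without any 1 of 7 libraries, adjusted p up to 0.0813; 8 of the 12 lower at an unadjusted p under 0.05, 5 with DESeq2 and 8 with limma voom), and the 9 fat genes a median of -0.54, of which 0 passed with edgeR or DESeq2, and 1 (Cidea) was lower with limma voom and at an unadjusted edgeR p under 0.05. Of 9 tested glial genes Gfap fell (log2 -2.53 ± 0.52 SE; edgeR adjusted p = 0.0124), and 4 were lower and 1 higher at an unadjusted p under 0.05, 2 lower with DESeq2 and 4 with limma voom. None of 8 macrophage genes passed with edgeR, at an unadjusted p, with DESeq2 or with limma voom, and their median was 0.11. Of 7 kidney genes 0 had enough counts for the edgeR test, while DESeq2, run without that filter, called 1 higher. Of 6 cardiac genes 2 were tested and of 10 skeletal muscle genes 3, and none passed with edgeR, DESeq2 or limma voom (0 and 2 at an unadjusted p under 0.05). In the cortex list Hsd3b1, Mc2r and Cyp21a1 rose (Cyp21a1 not without ORX 2 or ORX 5, adjusted p up to 0.0516) and the median was 0.24, with 4 higher at an unadjusted p under 0.05, 3 higher with DESeq2, and 3 higher and 1 lower with limma voom. The part of these cell types in the lower values of the 10 genes was not tested.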

How the data were processed

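RNA-seq covered 11 adrenal samples, which the labels put into 5 intact and 6 ORX. The input was 300 ng of total RNA per the labels' protocols, which name both a stranded and an unstranded TruSeq guide. The authors deposited whole-number counts by gene symbol. According to the submitters' processing notes bcl2fastq 1.8.4, Subread 1.5.1 and mm10 were used, with no role stated. For annotation and strand setting nothing is given in the sources used here. The table stands 2 times in the file, identical, and the first copy was used.

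Genes were filtered with filterByExpr (minimum count 10, minimum total 15), TMM-scaled, and tested by quasi-likelihood in edgeR 4.0.16 (R 4.3.3, no covariate), adjusted over 14139 genes, which held 99.9% of counts. The edgeR fit was tested on simulated counts. For the ratios, a separately written permutation test was tried on simulated normal values. It compared absolute differences, whereas the reported p-values double the smaller tail. The blocked ratio test was not simulated. CPM are TMM-scaled. Each SE is the fold change divided by the root of its F statistic. Ratios and deviations used log2 of CPM plus 0.1, and correlations 100000 permutations within groups. The 10 genes and the 16 lists of 200 other genes, 5 matched under an older symbol, were chosen with earlier results of these data known. Named were the 10 genes, from each list at most 4 passing genes, ranked by p, the 3 genes most like Acta2, Rgs5 and Pdgfra (mean of at least 1 CPM, no Gm-number or Rik symbols; 1 is not reported here) and Pecam1. Others named (genes that did not pass and those completing a count) were chosen after their values were seen. Positions are from GENCODE M21 (GRCm38). Alternatives were other scalings and filters, DESeq2 1.42.0, limma 3.58.1 voom with sample weights, a replicate block, leaving out libraries and an adjusted p of 0.01. All libraries of a group differed by more than sampling noise (chi-square over degrees of freedom at least 25.5). No batch is given.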

Additional observations from a re-analysis of the deposited data

Results flagged for a closer look

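Of 20 groups of values (10 genes in 2 groups) 2 held a library far from the rest by Dixon's criterion, where chance gives about 1 in 20. Acta2 stood at 144 CPM in intact 5, the next intact library being at 97.1, a gap of 0.720 of the group's range. Myh11 stood at 26.6 CPM in ORX 3, the next ORX library being at 12.4, a gap of 0.805 of the range. ORX 3 was the highest ORX library for 7 of the 10 genes.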

How the results depend on the processing

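Under all 20 other settings of the fit all 10 genes kept a log2 fold change below 0. The genes called numbered 2 of 10 as reported, 5 with DESeq2 (Mcam, Myh11, Notch3, Pdgfrb and Rgs5; 5.81% of all genes lower), 7 with limma voom (these and Acta2 and Tagln; 7.74%), 1 with the replicate block (Mcam; 1.33%), 0 at an adjusted p under 0.01 (0.672%; 8 at an unadjusted p under 0.05) and 1 to 3 without any 1 library (1 without intact 5 or ORX 5, 3 without ORX 3 or ORX 6). The share of all genes called lower was 1.28% without intact 5, 1.38% without ORX 5, 5.19% without ORX 3 and 3.19% without ORX 6. Over all genes 878 passed as reported, 1737 with DESeq2, 2056 with limma voom, 416 with the block, 260 at 0.01 and 408 to 1280 without any 1 library (483, 558 and 408 without intact 1, 2 or 5, and 505, 434, 570 and 447 without ORX 1, 2, 4 or 5). Without intact 3 and ORX 6 together 1218 genes passed, 696 as lower (4.93%), 3 of the 10 genes among them (Mcam, Pdgfrb and Rgs5), and the median of all 10 was -0.75. The sample numbers are not said to pair the samples. Deviations of same-numbered samples correlated from -0.267 to 0.176, and 1 of 5 intact libraries correlated best with its number. With 5 such pairs these values cannot show whether a pairing existed. With the replicate block, Pdgfrb was at log2 -0.73 (edgeR adjusted p = 0.104) and Mcam at -0.75 (0.0231). The ratio differences in the block (5 same-numbered pairs; ORX 6, which has no partner, adds nothing in either blocked analysis) were 0.35, -0.50 and -0.58 for Pdgfra to Pdgfrb, Acta2 to Rgs5 and Rgs5 to Pecam1. Without any 1 library these ranged from -0.04 to 0.57, from -0.50 to 0.40 and from -1.02 to -0.58; the first turned to -0.0395 without intact 4, the second to 0.40, 0.17 and 0.03 without ORX 1, 2 or 4, and the last passed without ORX 1. Of 200 other values for the 10 genes, 184 kept their side of the threshold, 5 lost and 11 gained a call. For Pecam1 and the listed genes that passed as reported, 79 of 340 values lost a call and 5 gained one. These genes were chosen because they passed, so only Pecam1, which had not, could gain a call. The cause of these differences between settings was not tested.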
